A study of Mus musculus with 12 samples.

Results

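Integrins are the receptors by which heart muscle cells hold on to the surrounding matrix, and the kinases FAK and ILK sit at their cytoplasmic ends. RNA of 10 such genes was followed in cytokine-treated murine cardiomyocytes: the α subunits Itga1, Itga5, Itga6, Itga7 and Itgav, the β subunits Itgb1, Itgb3 and Itgb5, the integrin-linked kinase gene Ilk, and Ptk2, which encodes focal adhesion kinase (FAK). The genes were picked by name from the 22915 genes in the table. All 10 were listed, and all 10 were among the 13184 genes that passed the filter on low values.

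An integrin at the cell surface is a pair of an α and a β subunit, and the pair decides which matrix protein is bound. Partners of integrin β1 include α7 and α6 for laminin, α1 for collagen and α5 for fibronectin, whereas αv joins β3 and β5 in receptors that recognize the RGD motif of vitronectin, fibronectin and osteopontin. Talin and kindlin switch integrins on, and paxillin, FAK, and the complex of ILK with PINCH and parvin proteins pass the signal to the actin cytoskeleton. In cardiomyocytes these adhesions lie at the costameres, next to the dystroglycan complex, which binds laminin independently of integrins.

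Primary cardiomyocytes from adult male C57/Bl6 mice, 12 weeks old, were kept in normoxia for 24 h with sterile PBS or with a recombinant cytokine at 25 ng/ml, the dose given in the sample descriptions, where the article on these cultures gives a different one. Murine LIF (mLIF) signals through the LIF receptor (LIFR) and murine OSM (mOSM) through the OSM receptor (OSMR). The third cytokine, human-like OSM (hlOSM), is murine OSM carrying the AB loop of the human protein, and it uses OSMR as well as LIFR in murine cells. Each of the 4 conditions had 3 libraries, and whether these came from separate mice or cultures is not given in the sources used here, so p-values measure the spread between libraries only. The comparisons asked which adhesion genes responded to the LIFR ligand, to the OSMR ligand and to the ligand of both.

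Values are the authors' normalized counts, rounded to integers and not scaled for gene length, which summed to between 2745748 and 2911891 in a library. The article gives an average number of reads sequenced per library, but the number of counted reads behind the values of each library is unknown. Fold changes are differences of log2(normalized count + 1), with their standard error (SE) from limma, and a gene was called up- or down-regulated where the two-sided Benjamini-Hochberg adjusted p over all 13184 genes tested was under 0.05. Averaged over the conditions, replicates 3 and 1 differed by almost nothing in the deposited values (SD over 6626 genes of 0.0019 on the log2 scale, against a median of 0.159 within a condition), so a difference between replicate numbers is already absent from them. The fit treats the libraries as independent, and its p-values are therefore too small. Adjusted p-values from a fit that also carries the replicate number (the block) are given beside each of the 10 genes whose call against PBS or mLIF they change, and the gene lists are counted both ways. In RNA of whole cultures, fewer cells of a type and less RNA per cell cannot be told apart.

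The integrin genes moved in opposite directions. Against PBS, Itga7, Itga1 and Itga5 were up-regulated by mOSM and by hlOSM, while Itgav and Itgb5 were down-regulated by both cytokines. With hlOSM, Itgb1 was also up-regulated and Itgb3 down-regulated. In mLIF-treated cardiomyocytes the calls were Itga7, which rose, and Itgb3, which fell. The remaining genes Itga6, Ilk and Ptk2 passed the threshold with none of the cytokines.

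In numbers, 1 of the 10 genes was called higher and 1 lower with mLIF, where 5.47% of all genes tested were called higher and 4.44% lower. With mOSM, 3 were higher and 2 lower, against 15.4% and 15.8% of all genes. With hlOSM, 4 were higher and 3 lower, against 18.2% and 19.8% of all genes. The median log2 fold change of the 10 genes was 0.08 for mLIF, 0.11 for mOSM and 0.12 for hlOSM, beside medians over all genes within 0.01 of 0. The 3 libraries of a cytokine lay wholly above or below the 3 of PBS for 5 of the 10 genes with mLIF, 8 with mOSM and 8 with hlOSM, where the same held for 30.3%, 40.1% and 47% of all genes.

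**Figure D1:**
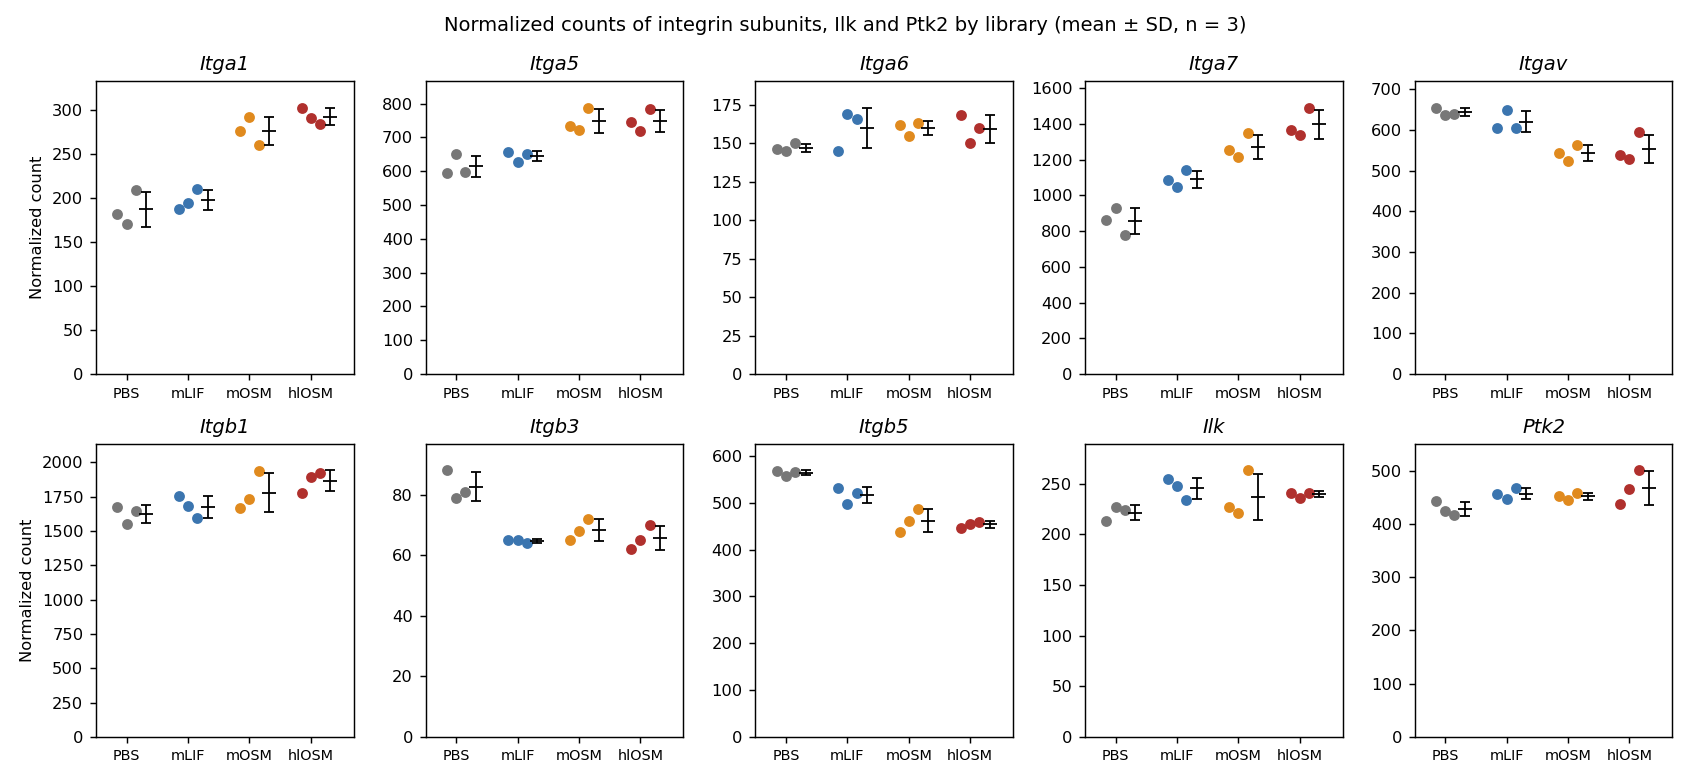
Normalized counts (vertical axis, from 0) of the 8 integrin subunit genes, Ilk and Ptk2 in each library of PBS-, mLIF-, mOSM- and hlOSM-treated cardiomyocytes, with points for libraries and black bars for the mean ± SD of 3. The mOSM and hlOSM points lie above all PBS points for Itga1, Itga5 and Itga7 and below them for Itgav, Itgb3 and Itgb5.

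The bases in front of 4 of these genes are shown because Itga1 and Itga5 rose with both OSM cytokines while Itgav and Itgb5 fell together. Itga7 rose as well but has no entry in the promoter table used. Each line gives the 250 bases before the transcript start in RefSeq (GRCm38.p6, the assembly of mm10), 5′ to 3′ on the strand of the gene, and capitals mark the GC box GGGCGG on either strand.
Itga1: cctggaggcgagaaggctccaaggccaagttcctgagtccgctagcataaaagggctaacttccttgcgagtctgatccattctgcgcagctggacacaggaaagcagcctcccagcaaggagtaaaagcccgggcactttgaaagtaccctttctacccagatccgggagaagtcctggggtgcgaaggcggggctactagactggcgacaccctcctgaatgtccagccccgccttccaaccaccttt
Itga5: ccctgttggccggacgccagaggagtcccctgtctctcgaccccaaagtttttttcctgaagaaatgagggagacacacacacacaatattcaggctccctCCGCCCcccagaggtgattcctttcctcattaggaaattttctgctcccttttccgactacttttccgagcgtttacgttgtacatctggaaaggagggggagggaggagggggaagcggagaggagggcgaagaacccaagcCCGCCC
Itgav: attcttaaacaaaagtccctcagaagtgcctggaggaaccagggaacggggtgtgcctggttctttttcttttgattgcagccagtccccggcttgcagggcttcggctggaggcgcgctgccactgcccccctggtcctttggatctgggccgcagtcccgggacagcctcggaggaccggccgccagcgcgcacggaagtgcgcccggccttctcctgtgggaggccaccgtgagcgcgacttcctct
Itgb5: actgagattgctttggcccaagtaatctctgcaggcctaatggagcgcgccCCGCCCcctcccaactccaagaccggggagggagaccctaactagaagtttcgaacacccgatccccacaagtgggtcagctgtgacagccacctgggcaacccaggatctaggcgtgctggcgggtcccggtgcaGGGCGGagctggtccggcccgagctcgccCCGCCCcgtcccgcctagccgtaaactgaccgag
The windows are chr13:115101965-115102214 (minus strand) for Itga1, chr15:103366792-103367041 (minus strand) for Itga5, chr2:83724147-83724396 (plus strand) for Itgav and chr16:33829415-33829664 (plus strand) for Itgb5. The GC box occurred 2 times in the Itga5 window and 3 times in that of Itgb5, so a gene that rose and a gene that fell both carried it, and it was found in neither of the other windows. Among the 32851 promoters of the same length in the RefSeq table, 32.7% held it. The STAT-type palindrome TTCNNNGAA, present in 7.02% of those promoters, and the AP-1 motif TGANTCA, present in 6.75%, were searched on both strands and matched none of the 7 windows listed for 6 of the 10 genes. These are matches of letters in a short window and carry no information on binding.

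Itga7, on chromosome 10 (mm10, 128933818 to 128958282, plus strand), encodes the laminin-binding α subunit typical of striated muscle. Its normalized counts in the 3 libraries were 860, 929 and 781 in PBS, 1084, 1046 and 1140 with mLIF, 1252, 1213 and 1348 after mOSM, and 1366, 1337 and 1491 after hlOSM. Every cytokine library exceeded every PBS library, and each OSM library exceeded each mLIF library. The mean rose from 857 ± 74.1 (SD, n = 3) in PBS to 1398 ± 81.8 (SD, n = 3) with hlOSM, a ratio of 1.63. On the log2 scale Itga7 gained 0.35 under mLIF (SE 0.0629, adjusted p = 0.00128), 0.57 under mOSM (adjusted p = 3.21e-07) and 0.71 under hlOSM (adjusted p = 1e-08). The 95% interval for hlOSM ran from 0.58 to 0.84.

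Itga1, on chromosome 13 (114953096 to 115101964, minus strand), encodes the α subunit of a collagen receptor. PBS libraries held 182, 171 and 209, and mLIF libraries 188, 195 and 210. With mOSM the normalized counts were 276, 292 and 260, and with hlOSM 303, 291 and 284. The ranges of PBS and mLIF overlapped, and all 6 OSM libraries lay above both. The log2 fold change was 0.56 with mOSM (SE 0.0772, adjusted p = 6.94e-06) and 0.65 with hlOSM (adjusted p = 7.56e-07), that is 1.47 and 1.56 times the PBS mean. With mLIF it was 0.08, with a 95% interval from -0.08 to 0.24. The gene shares 3.68% of its exonic bases with Gm49395 on the same strand, and reads on several genes were not counted.

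Itga5, on chromosome 15 (103344286 to 103366763, minus strand), encodes the α subunit of the main fibronectin receptor. Its libraries read 596, 650 and 598 in PBS, 657, 628 and 651 with mLIF, 733, 722 and 788 after mOSM, and 746, 718 and 784 after hlOSM. As for Itga1, PBS and mLIF overlapped and all OSM libraries were higher. The rise was smaller, 0.28 with mOSM (SE 0.0559, adjusted p = 0.000476) and 0.29 with hlOSM (adjusted p = 0.000335), or 21.6% and 21.9% over the PBS mean.

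Itgav and Itgb5 went the other way. Itgav, on chromosome 2 (83724397 to 83806916, plus strand), encodes the αv subunit and had normalized counts of 655, 636 and 640 in PBS and 605, 650 and 606 with mLIF. With mOSM they were 543, 523 and 564, and with hlOSM 538, 530 and 594. The OSM libraries all lay below the PBS and mLIF libraries, which overlapped. The log2 fold change was -0.24 with mOSM (SE 0.057, adjusted p = 0.00213) and -0.22 with hlOSM (adjusted p = 0.00439).

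Itgb5, on chromosome 16 (33829665 to 33949338, plus strand), encodes a β subunit that pairs with αv alone and binds vitronectin. Its normalized counts were 568, 558 and 566 in PBS, 531, 497 and 521 with mLIF, 437, 462 and 487 after mOSM, and 447, 454 and 460 after hlOSM. No library of any cytokine reached the lowest PBS value, and the mLIF libraries stood between PBS and both OSM conditions. Itgb5 fell by 0.29 on the log2 scale with mOSM (SE 0.0552, adjusted p = 0.000334) and by 0.31 with hlOSM (adjusted p = 0.000106). With mLIF the log2 fold change was -0.13 (adjusted p = 0.148).

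Itgb3, on chromosome 11 (104608000 to 104670476, plus strand), encodes the other vitronectin-receptor β subunit here and is best known from platelets and vessels. It had 88, 79 and 81 in PBS, 65, 65 and 64 with mLIF, 65, 68 and 72 after mOSM, and 62, 65 and 70 after hlOSM. All 9 cytokine libraries were below the PBS libraries, and the cytokines overlapped each other. The log2 fold change came to -0.35 for mLIF (SE 0.104, adjusted p = 0.0352), -0.27 for mOSM (adjusted p = 0.0512) and -0.33 for hlOSM (adjusted p = 0.016). The mOSM value passed the threshold in 5 of 15 alternatives, with adjusted p between 0.00608 and 0.177 over all of them. Under the block neither call was kept, at adjusted p = 0.113 for mLIF and 0.0543 for hlOSM. Leaving out any of the 6 libraries of the mLIF comparison ended its call (adjusted p 0.0565 to 0.124), and leaving out PBS replicate 1 or hlOSM replicate 1 ended that of hlOSM (adjusted p = 0.0754 and 0.0659).

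Itgb1, on chromosome 8 (128685654 to 128733200, plus strand), encodes the β subunit shared by most matrix receptors of the cell. PBS libraries held 1674, 1548 and 1643, mLIF libraries 1753, 1685 and 1591, mOSM libraries 1664, 1733 and 1940, and hlOSM libraries 1778, 1896 and 1921. Only the hlOSM libraries were free of overlap with PBS. The log2 fold change was 0.20 with hlOSM (SE 0.0581, adjusted p = 0.00878), 0.13 with mOSM (adjusted p = 0.0912) and 0.05 with mLIF (adjusted p = 0.649). Without PBS replicate 2 the hlOSM value was 0.17 and just missed the threshold (adjusted p = 0.0536), and its adjusted p over the 15 alternatives reached down to 3.2e-05. With mOSM, Itgb1 passed after quantile normalization (adjusted p = 0.000217) and without mOSM replicate 1 (adjusted p = 0.0379), and the highest adjusted p among the alternatives was 0.344.

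Itga6, the laminin-binding α subunit of many epithelia and vessels (chromosome 2, 71745616 to 71858416, plus strand), had 146, 145 and 150 in PBS. Its values were 145, 169 and 166 with mLIF, 162, 155 and 163 after mOSM, and 168, 150 and 160 after hlOSM. The 3 log2 fold changes lay between 0.11 and 0.12, with 95% intervals whose upper bounds were 0.28 for mLIF, 0.29 for mOSM and 0.28 for hlOSM. A rise of the size seen for Itga7 with mOSM or hlOSM lay outside these intervals, which the fit makes too narrow. A robust fit called Itga6 with mLIF and with mOSM (adjusted p = 0.0374 and 0.0489), and no other of the 15 alternatives did, with adjusted p up to 0.658 and 0.446.

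Neither kinase gene was called. Ilk (chromosome 7, 105736592 to 105742925, plus strand), the pseudokinase that ties integrin β tails to parvin and actin, had 213, 227 and 224 in PBS, 254, 248 and 234 with mLIF, 227, 221 and 263 after mOSM, and 241, 236 and 241 after hlOSM. Its log2 fold changes were 0.15, 0.09 and 0.11 (adjusted p = 0.199, 0.343 and 0.228). Of 15 alternatives only the robust fit called Ilk, with mLIF (adjusted p = 0.0245, up to 0.415 in the others) and with hlOSM (adjusted p = 0.0402, up to 0.456). Of its exonic bases, 89.7% overlap Rrp8 and Taf10 on the other strand, and the strand setting of the counting is not given in the sources used here. Ptk2 (chromosome 15, 73205102 to 73423280, minus strand) had 443, 425 and 417 in PBS, 456, 447 and 468 with mLIF, 452, 446 and 459 after mOSM, and 438, 466 and 501 after hlOSM. The mLIF and mOSM libraries lay just above those of PBS, and the hlOSM libraries overlapped them. The log2 fold change of Ptk2 was 0.09 for mLIF, 0.08 for mOSM and 0.13 for hlOSM, the last having a 95% interval from 0.01 to 0.25 and adjusted p = 0.0903. In 4 of 15 alternatives the hlOSM value passed the threshold, with adjusted p between 0.015 and 0.34 over all of them.

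**Figure D2:**
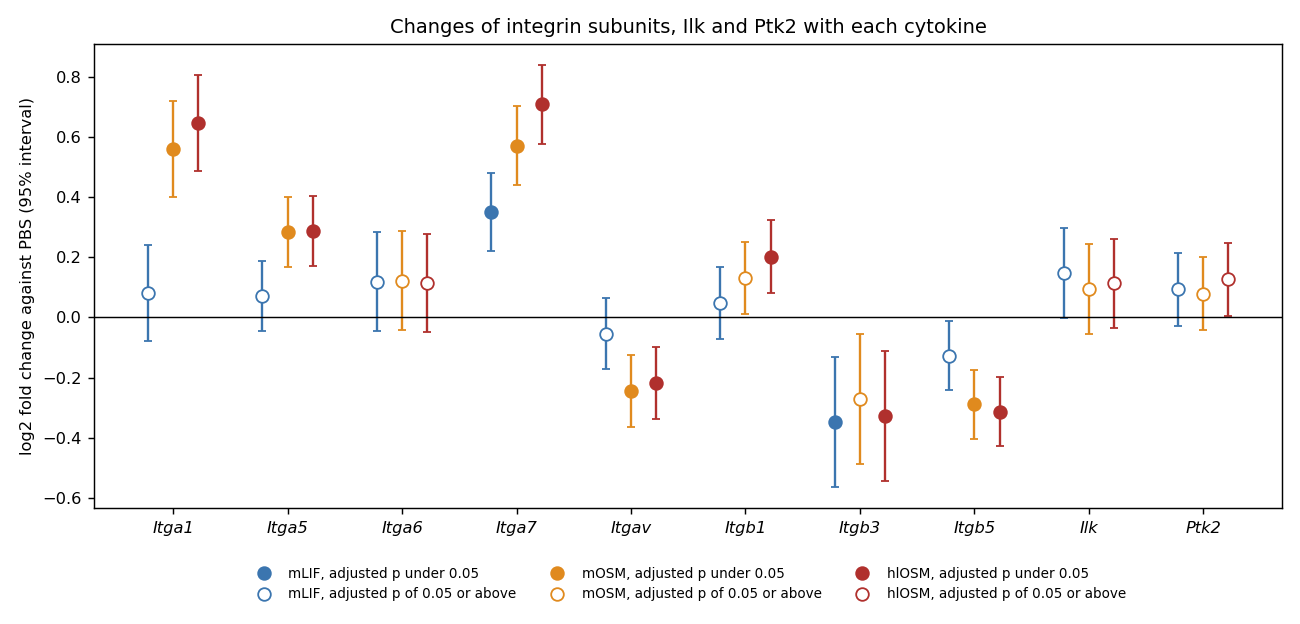
Log2 fold change against PBS (vertical axis) with its 95% interval for each of the 10 genes (horizontal axis) and each cytokine, filled where the adjusted p is under 0.05. Itga7, Itga1 and Itga5 stand above 0 and Itgav and Itgb5 below it with both OSM cytokines, and the intervals of mOSM and hlOSM overlap for every gene.

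The cytokines hlOSM and mOSM, which differ in the AB loop, were not set apart by any single one of these RNAs at 3 libraries each. None of the 10 genes was called between hlOSM and mOSM by limma, where 0% of all genes were called higher and 0.106% lower. At an unadjusted p under 0.05, 1 of the 10 genes and 987 of all genes were found. That gene was Itga7, with a log2 difference of 0.14, a 95% interval from 0.01 to 0.27 and an adjusted p of 0.65. Over the 10 genes the 95% intervals of hlOSM against mOSM spanned from -0.27 to 0.27, the lower bound coming from Itgb3 and the upper from Itga7. Larger differences lay outside these intervals, which the fit makes too narrow.

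Both OSM cytokines also gave calls against mLIF. Between mOSM and mLIF, 3 of the 10 genes were called higher and 1 lower, where 6.05% and 5.76% of all genes were. Between hlOSM and mLIF, 3 were also higher and 1 lower, where 7.42% and 9.22% of all genes were. The higher genes were in both cases Itga1, Itga5 and Itga7. For Itga1 the log2 difference from mLIF was 0.48 with mOSM (adjusted p = 0.000136) and 0.56 with hlOSM (adjusted p = 1.48e-05). For Itga7 it was 0.22 with mOSM (adjusted p = 0.0223) and 0.36 with hlOSM (adjusted p = 0.000283), and for Itga5 it was 0.21 with either (adjusted p = 0.0135 and 0.00973).

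The lower genes were Itgav with mOSM, at -0.19 (adjusted p = 0.0301), and Itgb5 with hlOSM, at -0.19 (adjusted p = 0.0225), and both calls were lost under the block (adjusted p = 0.0648 and 0.0554). The Itgav call was also lost without mLIF replicate 1, 2 or 3 or mOSM replicate 1 or 2, and the Itgb5 call without mLIF replicate 1 or 3 or hlOSM replicate 1 or 2, with adjusted p up to 0.171 and 0.104. The Itga7 difference between mOSM and mLIF was lost without mLIF replicate 1 or 2 or mOSM replicate 3 (adjusted p up to 0.12). For Itga5, leaving out mLIF replicate 2 ended the calls of mOSM and hlOSM against mLIF (adjusted p = 0.0793 and 0.0582), and leaving out mOSM replicate 3 ended that of mOSM (adjusted p = 0.0539).

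Whether hlOSM differed from the sum of both single-receptor ligands was asked with an interaction term on the log2 scale. None of the 10 genes passed, where 0.167% of all genes did by limma, and 1 of the 10 and 1521 of all genes had an unadjusted p under 0.05. For Itga7 the term was -0.21 with a 95% interval from -0.40 to -0.03 (adjusted p = 0.358), the single changes of 0.35 and 0.57 adding to more than the 0.71 with hlOSM. For Itgb3 it was 0.29 (95% interval from -0.01 to 0.60, adjusted p = 0.458), beside log2 fold changes of -0.35, -0.27 and -0.33 for mLIF, mOSM and hlOSM.

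To compare the abundance of different subunits, normalized counts were divided by the exonic length of the gene in kb. Among the integrin subunits followed so far, Itgb1 stood far above the others in PBS-treated cardiomyocytes, at 397 ± 16.1 per kb (SD, n = 3). It was followed by Itgb5 at 159 ± 1.49, Itga5 at 125 ± 6.21, Itga7 at 106 ± 9.15 and Itgav at 59.9 ± 0.932. Itga6 at 16.3 ± 0.293, Itgb3 at 14.0 ± 0.801 and Itga1 at 10.1 ± 1.05 per kb were the lowest, and no neighbors in this order overlapped in PBS. With hlOSM the order changed. Itga7 at 173 ± 10.1 and Itga5 at 152 ± 6.72 per kb now preceded Itgb5 at 128 ± 1.83, and Itga1 at 15.7 ± 0.517 preceded Itgb3 at 11.1 ± 0.685. Neighbors were again apart with hlOSM, whereas Itgb5, Itga7 and Itga5 overlapped pairwise in that order with mLIF, as did Itgb3 and Itga1. With mOSM, Itga7 and Itga5 overlapped. The order and its change rest on the division by exonic length. Undivided, the PBS means of Itga7 (857) and Itga5 (615) already exceeded that of Itgb5 (564). The undivided PBS mean of Itga1 (187) likewise exceeded that of Itgb3 (82.7).

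Shares were taken within the 5 α and the 3 β subunits followed so far, and other subunits were left out. Among those left out was Itga9, at a mean of 48.0 per kb in PBS and 68.3 with hlOSM, and Itga3, at 18.3 and 19.1. Of the β subunits, Itgb6 (95.8 and 78.9) and Itgb8 (2.38 and 24.2) were left out. The shares therefore do not describe all integrins of these cultures. Within the 5 α subunits, the share of Itga7 in the summed level per kb was 33.8%, 34.7% and 31.6% in the PBS libraries. With hlOSM it was 41.7%, 42.1% and 42.7%. The share of Itgav went from 19.4%, 17.9% and 19.5% to 12.4%, 12.6% and 12.8%. The mean share of Itga7 was 8.78 points higher with hlOSM, 6.70 with mOSM and 4.91 with mLIF, and the difference for Itgav was -6.36, -6.03 and -2.51 points in the same order. None of these ranges overlapped PBS. Among the 3 β subunits, Itgb1 went from a mean share of 69.7% ± 0.604 (SD, n = 3) in PBS to 72.4% ± 1.06 with mLIF, 75.5% ± 0.576 with mOSM and 76.7% ± 0.455 with hlOSM, while Itgb5 went from 27.9% to 25.6%, 22.5% and 21.4%.

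Each of these shifts had p = 0.1 in the exact two-sided permutation test of 3 libraries against 3, the smallest p this design allows, and 0.126 after Benjamini-Hochberg adjustment over 24 comparisons. Shares add up to 100% in a library, so a rise of one subunit lowers the others. The ratio of Itga7 to Itgav per kb was 1.74, 1.94 and 1.62 in PBS, 2.38, 2.14 and 2.50 with mLIF, 3.06, 3.08 and 3.17 after mOSM, and 3.37, 3.35 and 3.33 after hlOSM. The 4 conditions did not overlap in this ratio. It pairs the α member with the largest rise and the only α member that fell, so the choice favors a separation. The libraries of mOSM and hlOSM were also apart in the shares of Itga7, Itga5, Itgb1 and Itgb3 and overlapped in the other shares. No test of the shares or of the ratio compared mOSM with hlOSM. The level of Itgb1 over the same summed α subunits, without Itga9 and Itga3, was 1.26 ± 0.0966 (SD, n = 3) in PBS and 1.12 ± 0.0587 with hlOSM. Here the libraries overlapped, at 1.31, 1.15 and 1.32 in PBS and 1.08, 1.18 and 1.09 with hlOSM, and the difference was not tested.

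**Figure D3:**
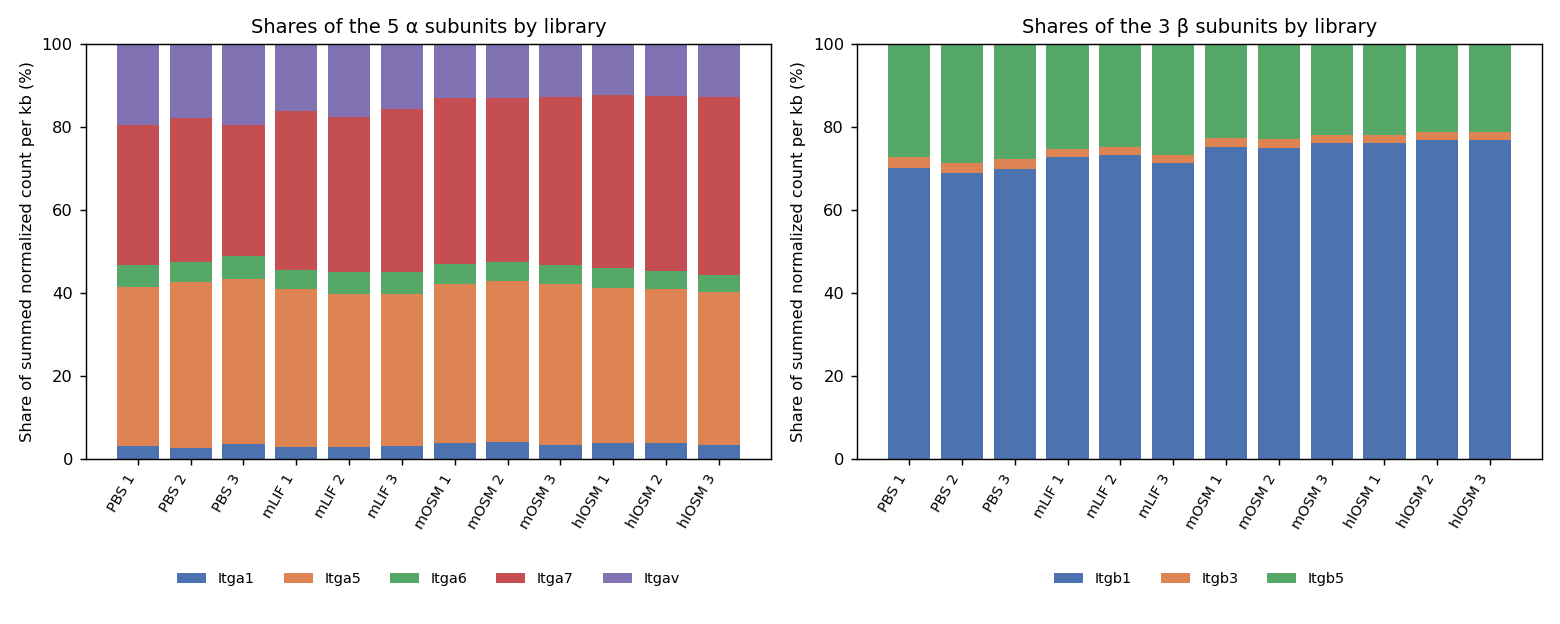
Share of each subunit (vertical axis, percent) in the summed normalized count per kb of the 5 α subunits (left) and the 3 β subunits (right), 1 bar per library. Other subunits, among them Itga9, Itga3, Itgb6 and Itgb8, are left out of the sums. The Itga7 segment widens from between 31.6% and 34.7% in PBS to between 41.7% and 42.7% with hlOSM, while the Itgav and Itgb5 segments narrow.

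The genes whose log2 values followed Itga7 most closely over the 12 libraries, among 6625 others averaging at least 100, were Akr1b8, Lpin2, Phldb2, Odc1 and Sri, with Pearson's r between 0.988 and 0.992. For Itgb3 they were Mdm2, Sfr1, Pds5b, Map4 and Bmi1, with r between 0.905 and 0.936 among 6626. Between the 10 genes themselves, r was 0.93 for Itga5 and Itga7, 0.85 for Itgav and Itgb5, and -0.90 for Itga1 and Itgb5. These values describe libraries that share their treatment and no test was attached to them.

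Further adhesion genes were taken from lists of related genes, where the median over all 13184 genes was -0.01 with hlOSM. The counts below are to be read beside 18.2% of all genes called higher and 19.8% lower with hlOSM, 15.4% and 15.8% with mOSM, and 5.47% and 4.44% with mLIF. Of 19 other integrin subunits, 18 were listed and 13 passed the filter, of which 3 were up- and 3 down-regulated with hlOSM, 3 and 4 with mOSM, and 1 and 0 with mLIF. Their median log2 fold change with hlOSM was -0.29. Itgb8, another β subunit that pairs with αv, had 26, 30 and 23 in PBS and 32, 27 and 30 with mLIF, but 272, 274 and 284 with mOSM and 242, 241 and 320 with hlOSM. The OSM libraries stood apart from the others by a wide margin. The mean was 10.5 times that of PBS with mOSM and 10.2 times with hlOSM (log2 fold changes of 3.35 and 3.29, adjusted p = 7.99e-15 and 8.8e-15). Its value with mLIF was 0.17 (adjusted p = 0.385). Itgam, a leukocyte α subunit named after its values were seen, was called lower with mOSM, and that call was lost with the block (adjusted p = 0.0622). It had 8, 12 and 26 in PBS and 11, 4 and 4 with mOSM, values that overlap and lie near the filter. Of its exonic bases, 68.7% are shared with Gm49368 on the same strand, and reads on several genes were not counted.

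Itgb6, also an αv partner, moved the opposite way, from a mean of 681 ± 41 (SD, n = 3) in PBS to 565 ± 13.1 with mOSM and 561 ± 80.5 with hlOSM (log2 fold changes of -0.27 and -0.29, adjusted p = 0.00808 and 0.00412). Itga9, an α subunit for tenascin and osteopontin, rose from 369 ± 20.1 to 535 ± 27.4 and 526 ± 35.2 (0.53 and 0.51, adjusted p = 2.1e-06 and 3.08e-06). With mLIF, Itga9 had 427, 399 and 459 (0.21, adjusted p = 0.0477), a call lost with the block (adjusted p = 0.0879). The collagen-binding α subunits split. Itga2 rose from 16.7 ± 0.577 to 44.7 ± 8.14 with mOSM and 38.3 ± 10.2 with hlOSM, whereas Itga11 fell from 43, 43 and 39 to 10, 9 and 20 with mOSM and 14, 13 and 6 with hlOSM. Itga8, called lower with both, had 29, 17 and 18 in PBS, 14, 9 and 7 with mLIF, and no more than 4 in any OSM library. It passed the filter only through the PBS libraries and 1 mLIF library, and its OSM values lie near the floor, so its calls carry little weight.

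**Figure D4:**
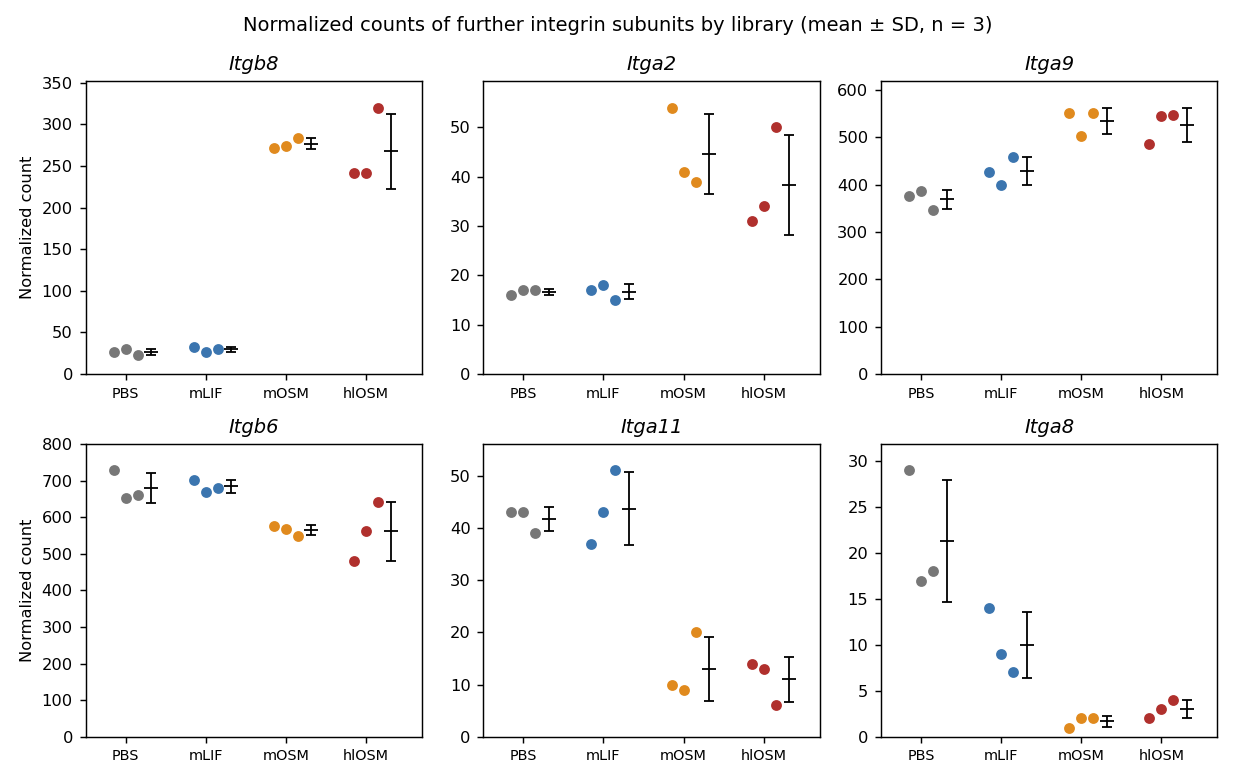
Normalized counts (vertical axis, from 0) of 6 further integrin subunits in each library of the 4 conditions, with the mean ± SD of 3. Itgb8, Itga2 and Itga9 are higher and Itga11 and Itga8 lower in every mOSM and hlOSM library than in any PBS library.

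Among 12 tested integrin activators and members of the ILK complex, hlOSM raised 6 and lowered 1, mOSM raised 4, and mLIF raised 1, where 18.2%, 19.8%, 15.4% and 5.47% of all genes were called in those directions, with a median log2 fold change of 0.25, 0.12 and 0.11. Lims1, which encodes the ILK partner PINCH-1, went from 563 ± 17.1 (SD, n = 3) to 856 ± 17.8 with mOSM and 915 with hlOSM (858, 863 and 1025). Its log2 fold changes were 0.60 and 0.70 (adjusted p = 9.79e-08 and 8.72e-09). Parvb (β-parvin) rose by 0.44 and 0.57 (adjusted p = 0.000127 and 4.06e-06). Parva (α-parvin) was not called against PBS and was lower with hlOSM than with mLIF (-0.25, adjusted p = 0.00905). With hlOSM, Rsu1, which binds PINCH, rose by 0.30 (adjusted p = 0.00896) and Itgb1bp2 (melusin), a muscle protein that binds the β1 tail, fell by 0.35 (adjusted p = 0.00375). The hlOSM calls of Sharpin and Fermt3 were lost with the block (adjusted p = 0.0806 and 0.0943), as were the mOSM call of Fermt2 (adjusted p = 0.0721) and the mLIF call of Lims1 (adjusted p = 0.051). The counts with the block were 4 higher and 1 lower with hlOSM and 3 higher with mOSM.

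Among 21 tested adaptors and FAK partners, 8 were higher and 5 lower with hlOSM, 7 and 3 with mOSM, and 1 and 3 with mLIF, and the median with hlOSM was -0.06. With the block only the mLIF count changed, to 1 and 2, since Git2 was lost (adjusted p = 0.103). Ptk2b, which encodes the FAK relative PYK2, had 31, 35 and 19 in PBS, 34, 34 and 50 with mLIF, 88, 74 and 98 after mOSM, and 102, 106 and 116 after hlOSM. The 2 OSM conditions overlapped neither PBS nor mLIF. This was a log2 fold change of 1.61 with mOSM (SE 0.182, adjusted p = 4.45e-07) and 1.94 with hlOSM (adjusted p = 2.32e-08), beside 0.08 and 0.13 for Ptk2. Pxn (paxillin) rose with every cytokine, by 0.32 with mLIF (adjusted p = 0.0111), 0.50 with mOSM and 0.61 with hlOSM. Arhgap26, which encodes the FAK-binding protein GRAF, fell with every cytokine, by 0.31 (adjusted p = 0.00875), 0.81 and 1.05 on the log2 scale. Ptpn12, a phosphatase of the adaptor p130Cas, rose by 0.39 and 0.38 with mOSM and hlOSM.

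The actin linkers were divided evenly with mOSM, 6 higher and 6 lower of 18, and were 6 higher and 8 lower with hlOSM. With mLIF 2 were higher and 4 lower, and with the block 1 and 3. The block also took 1 lower gene from each OSM cytokine, Lasp1 with mOSM (adjusted p = 0.0507) and Tns2 with hlOSM (adjusted p = 0.0589). The median with hlOSM was -0.11. Lpp, a zyxin relative, rose with mLIF, mOSM and hlOSM by 0.37, 0.47 and 0.57, and Pdlim7 and Cttn (cortactin) rose with mOSM and hlOSM by between 0.41 and 0.63. Flna (filamin A) fell by 0.55 with mOSM and 0.62 with hlOSM. Svil (supervillin) fell by 0.25, 0.51 and 0.63 with mLIF, mOSM and hlOSM, and Nexn (nexilin), a Z-disc protein, by 0.32, 0.52 and 0.56.

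The ligands of these receptors were not uniform either. Of 19 tested matrix genes, 4 were higher and 8 lower with hlOSM, 3 and 7 with mOSM, and 0 and 3 with mLIF, of which 1 was kept with the block. The median with hlOSM was -0.09. Spp1, the gene of the RGD protein osteopontin, had 131, 93 and 104 in PBS, 134, 150 and 111 with mLIF, 324, 394 and 424 after mOSM, and 335, 343 and 440 after hlOSM. All OSM libraries were above 300 and no other library was above 150. The log2 fold changes were 1.80 with mOSM (SE 0.126, adjusted p = 4.06e-10) and 1.76 with hlOSM (adjusted p = 3.43e-10). Tnc (tenascin C) rose by 0.44 and 0.37, whereas the laminin chain genes Lama2 and Lamb2 fell by 0.45 and 0.37 with mOSM and by 0.46 and 0.45 with hlOSM, as did Lama4 (0.32 and 0.38). The laminin chain gene Lamb1 was called higher with hlOSM (0.17, adjusted p = 0.0298), a call lost with the block (adjusted p = 0.0598), and Lama5 and Lamc1 were not called. Col1a2 fell by 0.88 and 0.98. Fn1 (fibronectin) was not called against PBS with either OSM cytokine, was lower with mLIF (-0.24, adjusted p = 0.0374, with the block 0.0558), and was higher with mOSM than with mLIF (0.41, adjusted p = 0.000356).

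The dystroglycan complex, the other laminin receptor of muscle, had 4 of 9 genes lower and none higher with both OSM cytokines, and 1 lower with mLIF, and a median of -0.12 with hlOSM. Dag1, the gene of dystroglycan, went from 919, 914 and 1051 in PBS to 731, 774 and 670 with mOSM and 702, 671 and 768 with hlOSM. Every OSM library was below every PBS library. The log2 fold changes were -0.41 and -0.43 (adjusted p = 4.39e-05 and 1.72e-05), and Dmd (dystrophin) fell by 0.38 and 0.42 and its relative Utrn (utrophin) by 0.34 and 0.32. The single mLIF call, Dmd at -0.17, was lost with the block (adjusted p = 0.0786). Of 13 membrane partners and trafficking genes, 4 were higher and 3 lower with hlOSM, among them Cav1 (caveolin 1) at -0.95 and Slc3a2, which binds β tails, at 0.40. The tetraspanin gene Cd9 was lower with both OSM cytokines (-0.80 and -0.65), and Arf6, a GTPase of integrin recycling, was higher (0.52 and 0.46). The hlOSM call of Rab11a was lost with the block (adjusted p = 0.0783). With mOSM 3 were higher and 3 lower, and with mLIF Slc3a2 alone was called, and lost with the block (adjusted p = 0.108).

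**Figure D5:**
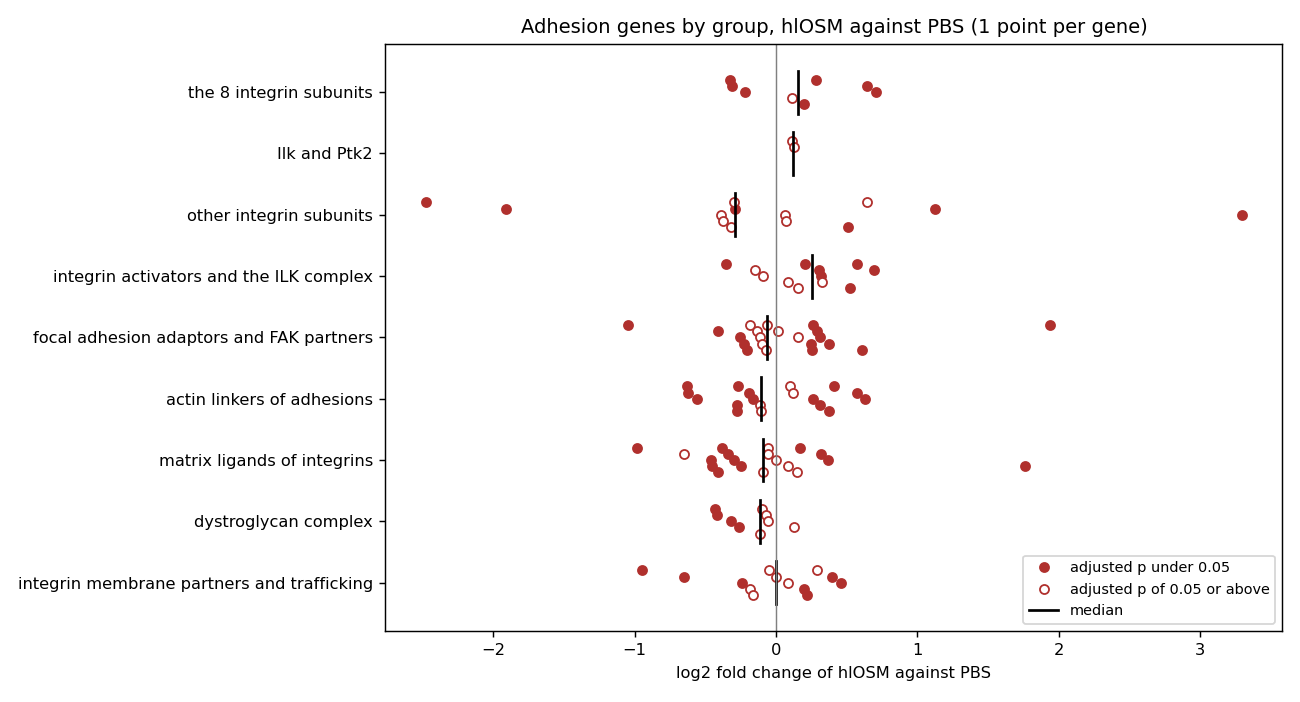
Log2 fold change of hlOSM against PBS (horizontal axis) for each tested gene of 9 adhesion groups (vertical axis), with filled points at an adjusted p under 0.05 and a black line at the median of the group. The 8 integrin subunits range from -0.33 to 0.71, Itgb8 reaches 3.29, and the dystroglycan genes called all lie below 0.

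Markers of the labeled cell type and of others that such cultures can hold moved too. The summed normalized count of 8 cardiomyocyte genes, led by Ttn, lay between 47832 and 49632 in PBS, 41479 and 43375 with mLIF, 33631 and 37660 after mOSM, and 34416 and 36916 after hlOSM, and 6 of the 8 fell with either OSM cytokine and 5 with mLIF, 3 of them with the block. The sum of 8 endothelial markers was between 1188 and 1262 in PBS and between 1471 and 1700 over both OSM conditions. Of the 8, 6 were called higher with mOSM and 6 with hlOSM, 5 with the block, Vwf being called with mOSM and not hlOSM and Tek with hlOSM and not mOSM, and Cdh5 (VE-cadherin) rose by 0.65 and 0.72. The sum of 8 mural cell markers was between 1842 and 2158 in PBS and between 1227 and 1448 with the OSM cytokines, with 6 of 8 lower with mOSM and 7 with hlOSM, Acta2 (smooth muscle actin) by -1.43 and -1.45. Fibroblast markers were mixed, with sums between 2296 and 2526 in PBS and between 2307 and 2885 with the OSM cytokines, 2 of 8 higher and 3 lower with mOSM, and 3 and 5 with hlOSM, 2 and 5 with the block. Leukocyte markers summed to between 337 and 364 in PBS and between 359 and 427 with the OSM cytokines, and 1 of the 7 tested was higher and 1 lower with either, the lower one with mOSM being Itgam. No marker was at 0 throughout a condition. Integrin subunits are also made by these other cells, and the part of such shifts in the changes above was not tested.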

How the data were processed

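RNA of primary murine cardiomyocytes was sequenced in 12 libraries, grouped and numbered as in the sample titles. Per the labels, libraries were made from total RNA with a stranded kit, and the submitters' processing notes name FastQC, STAR 2.7.7a, featureCounts 1.6.5 and mm10. Reads overlapping several genes were excluded by the authors, who deposited normalized counts rounded to whole numbers, treated here as scores and not as read counts. The normalization method and the strand setting of the counting are not given in the sources used here, and the depth behind a value is unknown, so no counting error was attached.

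Differences were tested by limma 3.58.1 under R 4.3.3 (linear model and moderated variance with an intensity trend), all 4 conditions entering together as log2(normalized count + 1). The 13184 genes kept had to reach 10 in 3 or more libraries. The procedure was tested on simulated data. Calls needed an adjusted p (Benjamini-Hochberg, two-sided) below 0.05. Shares and levels per kb used exonic lengths of GENCODE M21, whose gene bounds equal those of the table for all 10 genes, and shares were compared by exact permutation with scipy 1.17.1. Sequences are from RefSeq (GRCm38.p6).

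The 10 genes and the lists of adhesion genes and cell type markers were chosen with earlier results of these data known. Besides the 10 genes, the text names genes of each list past the threshold with hlOSM (up to 4 per direction, mean normalized count of at least 50), those past it between 2 cytokines, and the genes most like Itga7 and Itgb3. Comparisons against PBS share the PBS libraries. The fit was repeated after adding 0.1 or 5 in place of 1, with the filter dropped or raised to 50, after quantile normalization or scaling to a trimmed mean, with robust variances, on the compared libraries alone, with a replicate block, and without each library. Shares were also computed without division by length.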

Additional observations from a re-analysis of the deposited data

How the results depend on the processing

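The log2 fold changes of the 10 genes against PBS, and those called against mLIF, kept their direction under all alternatives run. Of the share differences, those of Itga1 and Itga6 with mLIF, whose libraries overlapped PBS, changed sign without PBS replicate 3, to under 0.1 points, and that of Itga6 also without mLIF replicate 1. Of the log2 fold changes recomputed, 525 kept their side of the threshold, 16 passed it only under the alternative and 29 no longer passed it. With mLIF, 2 of the 10 genes were called, 5 with the robust fit (Itga6, Itgb5 and Ilk being added), and between 1 and 1 with a library left out. Between mOSM and mLIF, 4 were called, and between 1 and 3 with a library left out. The α subunit shares that gained took up 7.30 points in all with mOSM and 9.44 with hlOSM, and 9.0 and 11.01 points without division by length, where the weight of each gene changes by construction. The gain among β subunits with mOSM was 5.77 points, and 6.70 after quantile normalization, where the cause was not tested. Over the adhesion and marker lists, 29 counts of called genes stayed within 1.5 times under the replicate block and 8 fell below that.

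Whether a replicate number marks a shared preparation is not given in the sources used here. Differences between the numbers are nearly absent from the deposited values (SD of 0.0019 against 0.159 within a condition), which makes the deviations of libraries with the same number add up to about 0. Their correlations over 18 pairs (-0.406 to -0.151) are negative by construction and cannot show whether the libraries were paired. With the replicate block, 1 of the 10 genes was called with mLIF (Itga7), 5 with mOSM, 6 with hlOSM, and 3 in either comparison with mLIF. Over all genes, calls with the block were 784 instead of 1307 with mLIF, 3330 instead of 4120 with mOSM, and 4120 instead of 5002 with hlOSM. Between hlOSM and mOSM they were 2 instead of 14, and for the interaction 14 instead of 22. In simulated data at this size, the test for hlOSM against PBS over 13184 genes found 171 of 200 simulated log2 changes of 1 and 102 of 200 of 0.5. It also called 10 and 6 unchanged genes. The simulated libraries were independent, without the missing replicate difference of the deposited values, so these counts do not measure the error of the calls above.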
